A study of Mus musculus with 6 samples.

Results

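The genes described here are 25 immediate-early genes and 11 heat shock genes, 36 of the 38293 gene identifiers in the deposited tables, chosen by symbol from a written list and not by their values. They were followed in single-cell RNA sequencing of CD11b+ cells, the surface integrin used to sort innate immune cells, from the spinal cord of 10-week-old C57BL/6 mice. Live cells were stained ex vivo with 10 µM DCFDA, a dye that fluoresces once reactive oxygen species (ROS) oxidise it, and sorted by that signal. There were 3 groups with 2 libraries each, EAE ROS+, EAE ROS- and Healthy ROS-, where EAE is experimental autoimmune encephalomyelitis induced with MOG35-55 and taken at disease onset. No library of ROS+ cells from healthy mice was analysed here. All 6 libraries shared the strain, the digestion of the cord with collagenase for 30 min at 37 °C, the removal of myelin and the CD11b sort. Nothing in the labels ties the 2 libraries of a group to separate animals, and p-values therefore measure only the spread between these libraries, which may be technical. The main tests had 2 or 3 residual degrees of freedom, and the spread of a gene was estimated partly from other genes. A small p-value therefore does not show that the 2 libraries of a group agree for that gene.

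Immediate-early genes are switched on within minutes of a signal without new protein synthesis. Many encode transcription factors of the AP-1, EGR and KLF families, and others encode feedback proteins that end the response, such as the phosphatase Dusp1 and the mRNA-decay factor Zfp36. In microglia, the resident macrophages of the central nervous system, they are also known to rise during enzymatic tissue dissociation. Heat shock genes encode chaperones, which fold or refold proteins in the cytosol, the mitochondria and the endoplasmic reticulum. The inducible ones, such as Hspa1a and Dnajb1, are driven by heat shock factor 1 (Hsf1), whereas others, such as Hspa8, are expressed in most cells at rest.

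The promoter windows of 4 members are printed. They were picked because each holds a binding motif known from genes of its group, and they do not stand for the whole group. The windows are the 250 bases before the RefSeq start of each gene (build GRCm38.p6, the assembly behind mm10), written 5′ to 3′ on the gene's strand, and capitals mark the motif. Btg2 (chr1:134079156-134079405, minus strand) and Dusp1 (chr17:26508473-26508722, minus strand) are immediate-early genes with a cyclic AMP response element, TGACGTCA. Hspa1a (chr17:34972157-34972406, minus strand) and Dnaja1 (chr4:40722218-40722467, plus strand) are heat shock genes with a pair of facing heat shock element units, GAANNTTC or TTCNNGAA.
Btg2: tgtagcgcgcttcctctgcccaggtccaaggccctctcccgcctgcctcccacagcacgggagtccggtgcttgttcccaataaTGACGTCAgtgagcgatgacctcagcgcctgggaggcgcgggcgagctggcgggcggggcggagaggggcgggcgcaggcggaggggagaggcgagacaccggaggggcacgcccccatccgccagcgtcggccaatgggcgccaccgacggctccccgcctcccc
Dusp1: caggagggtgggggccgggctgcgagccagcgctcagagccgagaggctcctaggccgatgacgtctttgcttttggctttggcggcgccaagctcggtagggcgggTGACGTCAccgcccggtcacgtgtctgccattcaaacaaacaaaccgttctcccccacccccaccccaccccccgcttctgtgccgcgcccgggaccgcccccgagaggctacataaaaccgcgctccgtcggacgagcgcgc
Hspa1a: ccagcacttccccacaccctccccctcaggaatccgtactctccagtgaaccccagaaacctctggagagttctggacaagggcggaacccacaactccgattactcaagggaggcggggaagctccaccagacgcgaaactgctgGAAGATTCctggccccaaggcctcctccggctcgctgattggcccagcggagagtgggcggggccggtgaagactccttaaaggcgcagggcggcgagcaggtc
Dnaja1: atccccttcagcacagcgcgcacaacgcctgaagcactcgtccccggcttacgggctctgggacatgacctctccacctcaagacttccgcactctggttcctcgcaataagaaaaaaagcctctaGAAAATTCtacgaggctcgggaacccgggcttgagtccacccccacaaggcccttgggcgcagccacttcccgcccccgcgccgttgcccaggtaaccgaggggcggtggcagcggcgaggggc

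Of the 36 members, 29 had a window, 21 immediate-early and 8 heat shock, and 4 kinds of motif were searched on both strands. The heat shock pair was in 6 of the 8 heat shock windows (75%), those of Hspa1a, Hspa1b, Hsph1, Hspd1, Hspe1 and Dnaja1, and in 2 of the 21 immediate-early windows, Jun and Egr2. It was in 14.55% of the windows of all 27025 genes. The cyclic AMP response element was in 4 of 21 immediate-early windows, Dusp1, Btg2, Ppp1r15a and Maff, in none of the heat shock windows and in 1.769% of all windows. The CArG box, the site of serum response factor, was in 2 immediate-early windows, Egr2 and Zfp36, against 1.624% of all windows. The AP-1 site TGANTCA was in none of the immediate-early windows and in 1 heat shock window, Hspa5, against 7.819% of all windows. No motif contains another, and a match is a description of the window only.

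The 6 libraries held 9079 barcodes, of which 9078 passed the filters and 42 occurred in more than 1 library, and the study states 8701 cells. Total unique molecular identifiers (UMIs) ranged from 915197 in Healthy ROS- replicate 2, with 202 cells, to 23407825 in EAE ROS+ replicate 1, with 1745 cells. Cells were placed in classes by the UMIs of marker genes that exclude all 36 members. Microglia numbered 1749 and 194 in the healthy libraries, 442 and 199 in the EAE ROS- libraries and 16 and 7 in the EAE ROS+ libraries, and the library with 7, under the minimum of 10 cells, was left out of the tests unless stated. Monocyte-derived cells numbered 1662 and 2186 in the EAE ROS+ libraries and 813 and 1103 in the EAE ROS- libraries. Dendritic cells were few, 18 and 23 in the EAE ROS- libraries and 0 and 1 in the EAE ROS+ libraries, and Xcr1, Clec9a and Cd209a were at 0 among the 8 dendritic markers in both EAE ROS- sums, whose marker UMIs came from the other 5. No doublet caller was run, and 559 cells with markers of more than 1 class, 472 of them microglial and monocytic, entered only the sums over all sorted cells. Levels below are CPM, the UMIs of a gene scaled to the UMI total of the class in its library. The UMIs tag transcripts, not fragments, so they were not divided by gene length.

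As a group, the immediate-early genes took the largest share of UMIs in healthy microglia, 2.47% and 1.63% in replicates 1 and 2. In EAE ROS- microglia the share was 0.506% and 0.545%, and in the small EAE ROS+ microglial sums it was 0.717% and 0.912%. Monocyte-derived cells lay between healthy and EAE ROS- microglia, at 1.06% and 1.1% in the EAE ROS+ libraries and 0.962% and 0.907% in the EAE ROS- libraries. The dendritic sums stood at 0.462% and 0.6% and overlapped the EAE ROS- microglia. The heat shock genes were ordered the other way between healthy and EAE microglia, with 0.293% and 0.223% of UMIs in healthy microglia and 0.345% and 0.548% in EAE ROS- microglia. Their share was 0.303% and 0.389% in EAE ROS+ and 0.343% and 0.421% in EAE ROS- monocyte-derived cells and 0.276% and 0.402% in dendritic cells, so the heat shock shares of the 3 EAE classes overlapped.

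A few genes supplied much of each sum. In healthy microglia the top 5 immediate-early genes gave 54.1% and 57.7% of the list's UMIs, with Junb at 14.2% and 12.6%, Jun at 12.99% and 18.1% and Fos at 10.7% and 12.4%. Among heat shock UMIs the top 5 gave 82.9% and 87.7%. The healthy libraries also differed from each other: 21 of 22 immediate-early genes with enough UMIs were higher in replicate 1, by a median ratio of 1.66. In EAE ROS- microglia 12 were higher and 12 lower in replicate 1, with a median ratio of 1.01. For heat shock genes the EAE ROS- microglia differed more, since all 10 were lower in replicate 1, with a median ratio of 0.544.

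**Figure D1:**
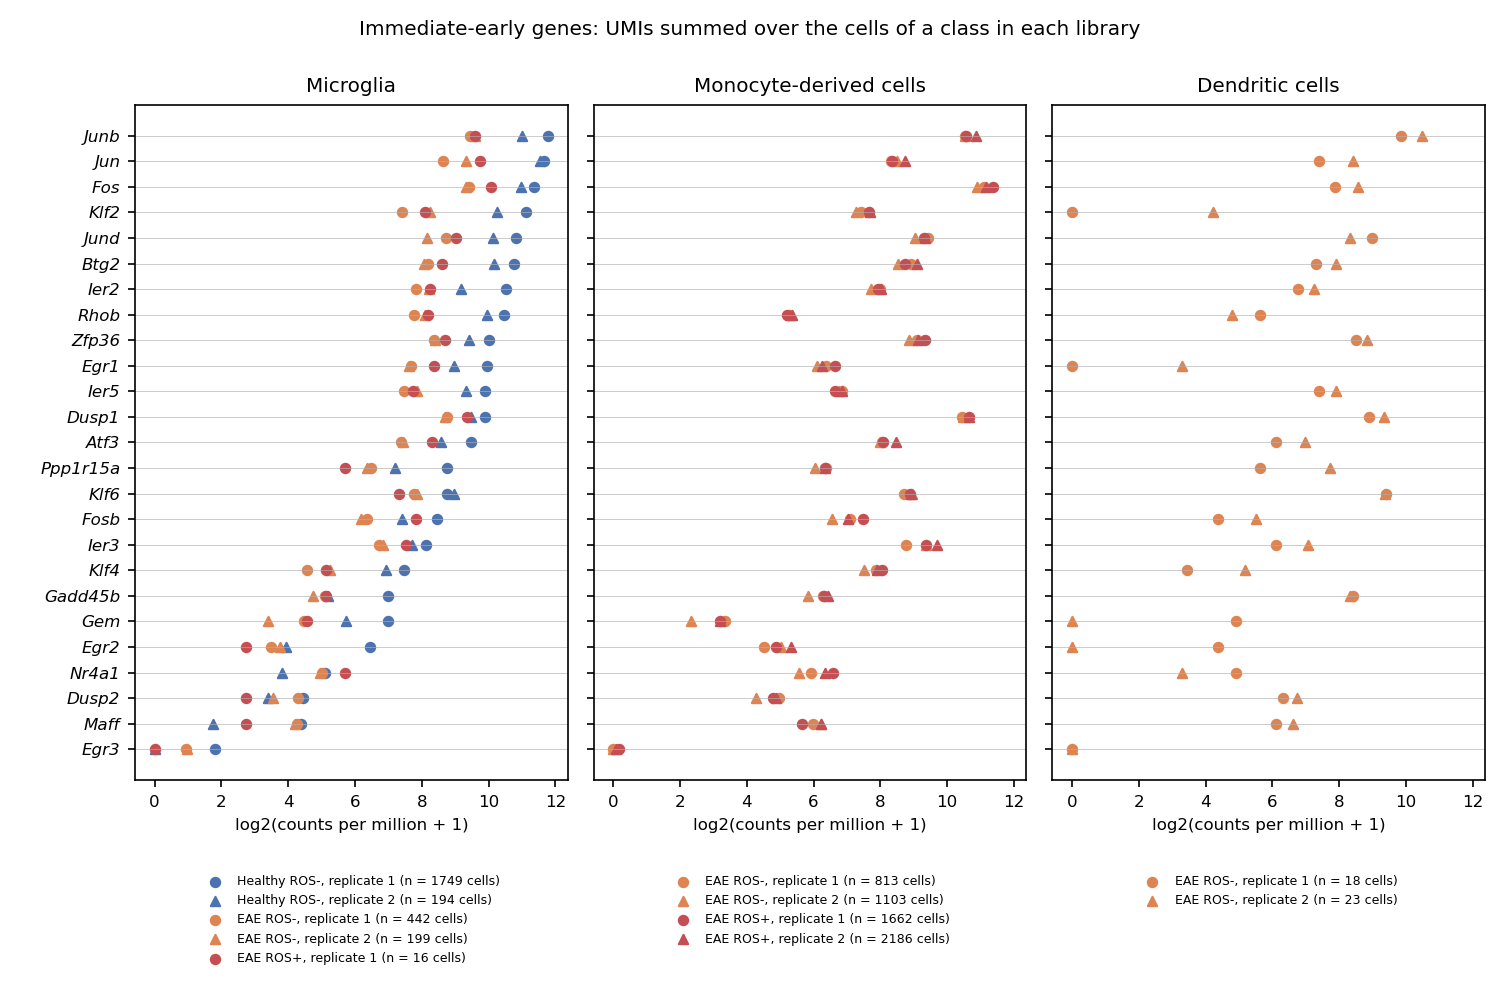
Levels of the 25 immediate-early genes as log2(CPM + 1) on the horizontal axis, 1 row per gene, in microglia, monocyte-derived cells and dendritic cells, with circles for replicate 1, triangles for replicate 2 and colours for the groups. In microglia the healthy libraries stand to the right of the EAE ROS- libraries for most genes, for example Jun at 3209.9 and 2955 CPM against 399.8 and 644 CPM.

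The first comparison set EAE ROS- microglia against healthy microglia from the same ROS- gate, inside 1 cell class. Of the 24 immediate-early genes tested, 21 fell, 0 rose and 3 did not pass (edgeR, adjusted p under 0.05 over 9640 genes). Among all genes tested, 14.8% were called higher, 11.7% lower and 26.5% in either direction. The median log2 fold change was -1.64 over the 24 genes and -0.05 over all genes tested. Egr3, the remaining member, was too low to be tested, with 11 and 0 UMIs in healthy and 3 and 1 UMIs in EAE ROS- microglia. Fold changes below are log2 values ± SE from this fit unless stated. Microglia held a median of 6517.5 and 4715 UMIs per cell in the EAE ROS- and 2179 and 3611.5 in the healthy libraries. The fold changes therefore compare scaled levels, and a lower scaled level need not mean fewer UMIs of a gene per cell.

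The AP-1 subunits came first by role. Fos, whose protein pairs with JUN proteins to form AP-1, stood at 2629.6 and 2024 CPM in healthy and 686 and 635 CPM in EAE ROS- microglia. The groups did not overlap, and Fos was 3.04-fold lower (log2 fold change -1.61 ± 0.25, adjusted p = 3.80e-05). Jun, the partner subunit, had 3209.9 and 2955 CPM in healthy and 399.8 and 644 CPM in EAE ROS- microglia. Both healthy libraries were far above both EAE libraries, a 5.2-fold difference (log2 fold change -2.38 ± 0.26, adjusted p = 3.90e-07). Junb was at 3517 and 2056 CPM against 696 and 768 CPM (log2 fold change -1.72 ± 0.26, adjusted p = 3.50e-05), with a wide gap between the healthy libraries. Jund, the subunit least dependent on stimulation, was at 1812 and 1129 CPM against 423 and 281 CPM (log2 fold change -1.83 ± 0.28, adjusted p = 3.25e-05). Fosb was at 352 and 170.0 CPM against 81.7 and 71.1 CPM (log2 fold change -1.56 ± 0.28, adjusted p = 2.25e-04). All 5 FOS and JUN genes were thus lower in EAE ROS- microglia with no overlap of the groups. Atf3, a stress-induced factor that also binds AP-1 proteins, had 710.3 and 384 CPM in healthy and 164 and 174 CPM in EAE ROS- microglia (log2 fold change -1.49 ± 0.26, adjusted p = 1.84e-04) and showed the same order. Maff, a small MAF protein, was 1 of the 3 genes that did not pass, with 19.9 and 2.38 CPM in healthy and 18.02 and 17.3 CPM in EAE ROS- microglia. Its healthy libraries lay on either side of the EAE ones (log2 fold change 0.56 ± 0.45, adjusted p = 0.392).

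Among the EGR and KLF zinc-finger factors Egr1, Klf2, Klf4 and Klf6 fell, whereas the call of Egr2 rested on 1 library. Egr1, an early sensor of growth factor and calcium signals, had 980.2 and 498 CPM in healthy and 202 and 196 CPM in EAE ROS- microglia (log2 fold change -1.68 ± 0.27, adjusted p = 6.92e-05). Egr2 was low throughout, with 86.6 and 14.3 CPM in healthy and 10.2 and 12.5 CPM in EAE ROS- microglia (log2 fold change -2.13 ± 0.46, adjusted p = 0.00135). Here healthy replicate 1 alone was high, and without it the Egr2 difference shrank to -0.21 (adjusted p = 0.831). Klf2, a factor that restrains inflammatory activation of myeloid and endothelial cells, showed the most negative fold change of the list. Its levels were 2204 and 1222 CPM in healthy and 169 and 299.6 CPM in EAE ROS- microglia, 6.45-fold lower (log2 fold change -2.69 ± 0.30, adjusted p = 3.57e-07). Klf4, which acts in monocyte differentiation, had 175 and 120.1 CPM against 22.8 and 37.4 CPM (log2 fold change -2.18 ± 0.27, adjusted p = 2.28e-06). Both KLF genes were separated between the groups. Klf6 was closer, at 427 and 498 CPM against 218 and 229 CPM (log2 fold change -0.84 ± 0.24, adjusted p = 0.0101), and its call was lost without EAE ROS- replicate 1 (adjusted p = 0.0519) or healthy replicate 2 (adjusted p = 0.0565).

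Signalling and cytoskeletal members followed. Rhob, a small GTPase of endosome and actin traffic, had 1399.6 and 991 CPM in healthy and 217 and 269.8 CPM in EAE ROS- microglia (log2 fold change -2.10 ± 0.25, adjusted p = 1.17e-06). Gem, a GTPase that limits calcium channels, was at 125 and 52.3 CPM against 21.02 and 9.60 CPM (log2 fold change -2.21 ± 0.35, adjusted p = 5.56e-05). Ier2 had 1484 and 577 CPM against 227 and 298 CPM (log2 fold change -1.77 ± 0.31, adjusted p = 1.54e-04). In these 3 genes no EAE ROS- library reached the lower healthy one. Ier5, a regulator of heat shock factor 1, was at 959 and 642 CPM against 177 and 229 CPM (log2 fold change -1.79 ± 0.25, adjusted p = 1.08e-05). Ier3, a survival gene, was at 277 and 207 CPM against 105 and 113 CPM (log2 fold change -0.95 ± 0.24, adjusted p = 0.00429). Both were separated between the groups, Ier3 by the smaller margin.

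The feedback genes, which end signals or slow growth, differed in size, from -2.16 for Btg2 to -0.74 for Dusp1 among those called. Btg2, an antiproliferative deadenylation factor whose promoter window is printed above, had 1746 and 1146 CPM in healthy and 289 and 268 CPM in EAE ROS- microglia (log2 fold change -2.16 ± 0.26, adjusted p = 1.17e-06). Zfp36, which destabilises cytokine mRNAs, was at 1031 and 685 CPM against 329.8 and 334 CPM (log2 fold change -1.16 ± 0.25, adjusted p = 0.00114). Dusp1, which inactivates MAP kinases and also has a printed window, was at 943 and 707 CPM against 435 and 418 CPM (log2 fold change -0.74 ± 0.24, adjusted p = 0.0246). The order was the same for all 3, but Dusp1 missed the threshold without healthy replicate 1 (adjusted p = 0.126), EAE ROS- replicate 1 (0.068) or EAE ROS- replicate 2 (0.127). Ppp1r15a, the GADD34 subunit that restores translation after stress, had 432 and 146 CPM against 88.6 and 80.7 CPM (log2 fold change -1.56 ± 0.32, adjusted p = 8.73e-04). Gadd45b, a stress sensor upstream of p38 kinase, had 126 and 35.7 CPM against 33.6 and 25.9 CPM (log2 fold change -1.27 ± 0.35, adjusted p = 0.00993). Both depended on healthy replicate 1, without which their differences were -0.62 (adjusted p = 0.113) and -0.05 (adjusted p = 0.952). DESeq2 also called neither, with adjusted p of 0.142 and 0.167, nor Egr2, at 0.0746. The nuclear receptor Nr4a1 was at 33.7 and 13.1 CPM in healthy and 31.5 and 29.8 CPM in EAE ROS- microglia (log2 fold change 0.45 ± 0.32, adjusted p = 0.327), and the phosphatase Dusp2 was at 20.8 and 9.51 CPM and 18.6 and 10.6 CPM (log2 fold change 0.13 ± 0.40, adjusted p = 0.857). For both genes the groups overlapped. Without healthy replicate 1, Nr4a1 (1.397, adjusted p = 0.0345) and Maff (3.02, adjusted p = 0.00695) were called higher in EAE ROS- microglia.

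**Figure D2:**
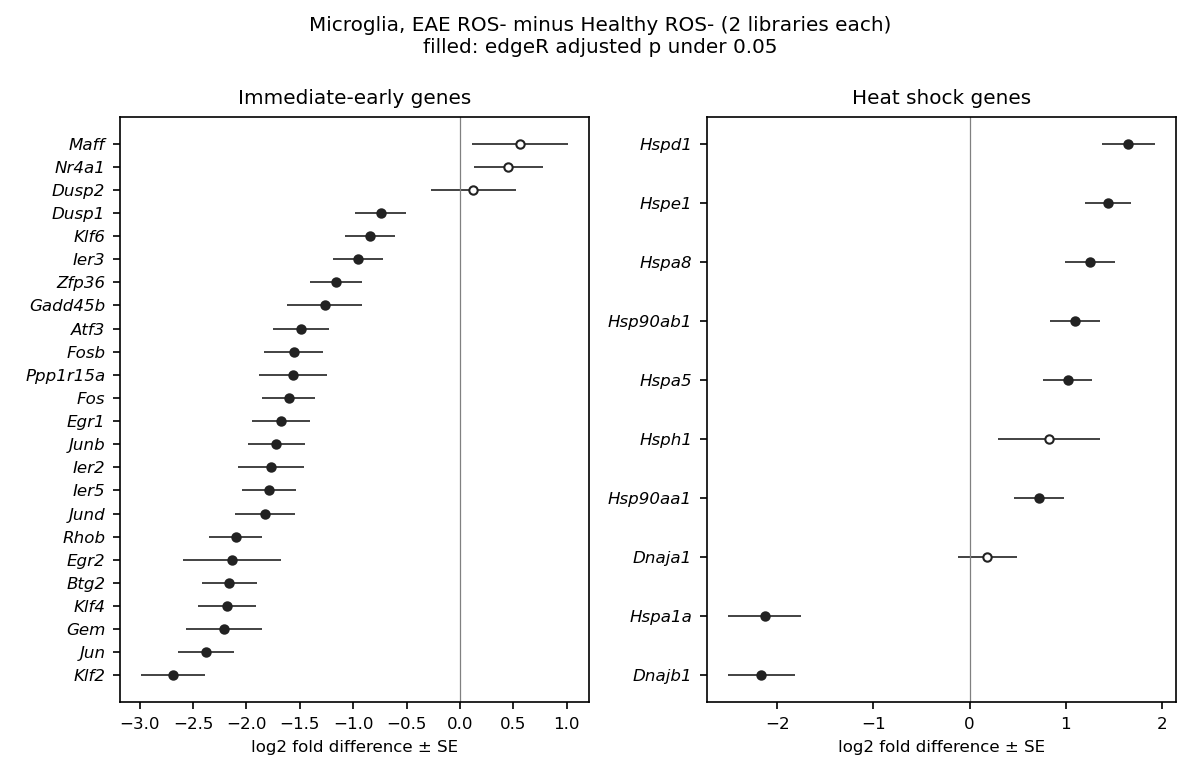
Log2 fold change of each tested member between EAE ROS- and healthy microglia, with 1 SE to either side, filled where the edgeR adjusted p was under 0.05. Of the immediate-early genes 21 filled points lie below 0, with Klf2 the lowest at -2.69, and the heat shock genes lie on both sides, from -2.17 for Dnajb1 to 1.65 for Hspd1.

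The heat shock genes moved in both directions between the same microglial groups. Of 10 tested, 6 rose, 2 fell and 2 did not pass, and the median log2 fold change was 0.92. Plain library totals, which lower the median of all genes by 0.23, left 5 higher and 2 lower. Hspa1b, the remaining member, was not tested and had 19 and 0 UMIs in healthy and 2 and 7 UMIs in EAE ROS- microglia.

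The 2 genes that fell are inducible cytosolic chaperones. Not every inducible gene of the list fell, since Hsp90aa1, described below, had a positive fold change. Hsph1, Hspd1, Hspe1 and Dnaja1, whose promoter windows hold the heat shock pair as that of Hspa1a does, also had positive fold changes. Hspa1a, the stress-inducible HSP70, had 63.8 and 35.7 CPM in healthy and 6.31 and 18.2 CPM in EAE ROS- microglia, 4.37-fold lower (log2 fold change -2.13 ± 0.38, adjusted p = 2.12e-04). Dnajb1, the HSP40 partner that loads clients onto HSP70, had 318 and 112 CPM in healthy and 31.2 and 58.6 CPM in EAE ROS- microglia, 4.49-fold lower (log2 fold change -2.17 ± 0.35, adjusted p = 5.71e-05). For both the lower healthy library was above both EAE ROS- libraries. Hspa1a and Hspa1b are near-identical neighbours on chromosome 17, so reads could be split between them and each value is uncertain.

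The mitochondrial folding pair had the highest fold changes of the list. Hspd1, the HSP60 chaperonin, had 56.7 and 49.9 CPM in healthy and 103 and 199.7 CPM in EAE ROS- microglia, 3.14-fold higher (log2 fold change 1.65 ± 0.27, adjusted p = 8.52e-05). Hspe1, its HSP10 lid, had 210.0 and 203 CPM against 416 and 568 CPM, 2.72-fold higher (log2 fold change 1.44 ± 0.24, adjusted p = 9.10e-05). Neither gene's groups overlapped. The annotated ends of Hspd1 (chromosome 1, 55077833 to 55088243) and Hspe1 (55088148 to 55091317) overlap in GRCm38.p6, so reads there could count for either.

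The constitutive cytosolic chaperones and the endoplasmic reticulum HSP70 also rose. Hspa8, the constitutive HSC70, had 823 and 535 CPM in healthy and 1109 and 1726 CPM in EAE ROS- microglia (log2 fold change 1.25 ± 0.26, adjusted p = 0.00104). Hsp90ab1, the constitutive HSP90, had 451 and 579 CPM against 772 and 1162 CPM (log2 fold change 1.09 ± 0.26, adjusted p = 0.00275). Hspa5, the endoplasmic reticulum chaperone BiP, had 623 and 442 CPM against 718 and 1179 CPM (log2 fold change 1.02 ± 0.26, adjusted p = 0.005). In each of these the EAE ROS- libraries were above the healthy ones, and EAE ROS- replicate 2 was the highest. Hsp90aa1, the more inducible HSP90, had 185 and 199.7 CPM against 194 and 368 CPM (log2 fold change 0.72 ± 0.26, adjusted p = 0.0457). EAE ROS- replicate 1 fell between the healthy libraries, and Hsp90aa1 missed the threshold with plain library totals (0.53, adjusted p = 0.134) and with RLE scaling (0.68, adjusted p = 0.0548). Without EAE ROS- replicate 2, the differences of Hsp90ab1 (0.75, adjusted p = 0.104), Hspa5 (0.60, adjusted p = 0.226) and Hsp90aa1 (0.18, adjusted p = 0.772) also missed it. Dnaja1, an HSP40 with a printed window, had 181 and 73.7 CPM against 95.5 and 172 CPM (log2 fold change 0.19 ± 0.30, adjusted p = 0.699), and Hsph1, an HSP70 exchange factor, had 9.72 and 4.75 CPM against 7.21 and 21.1 CPM (log2 fold change 0.83 ± 0.53, adjusted p = 0.27). Both overlapped between the groups, and without healthy replicate 1 Dnaja1 was called higher in EAE ROS- microglia (0.96, adjusted p = 0.0358).

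**Figure D3:**
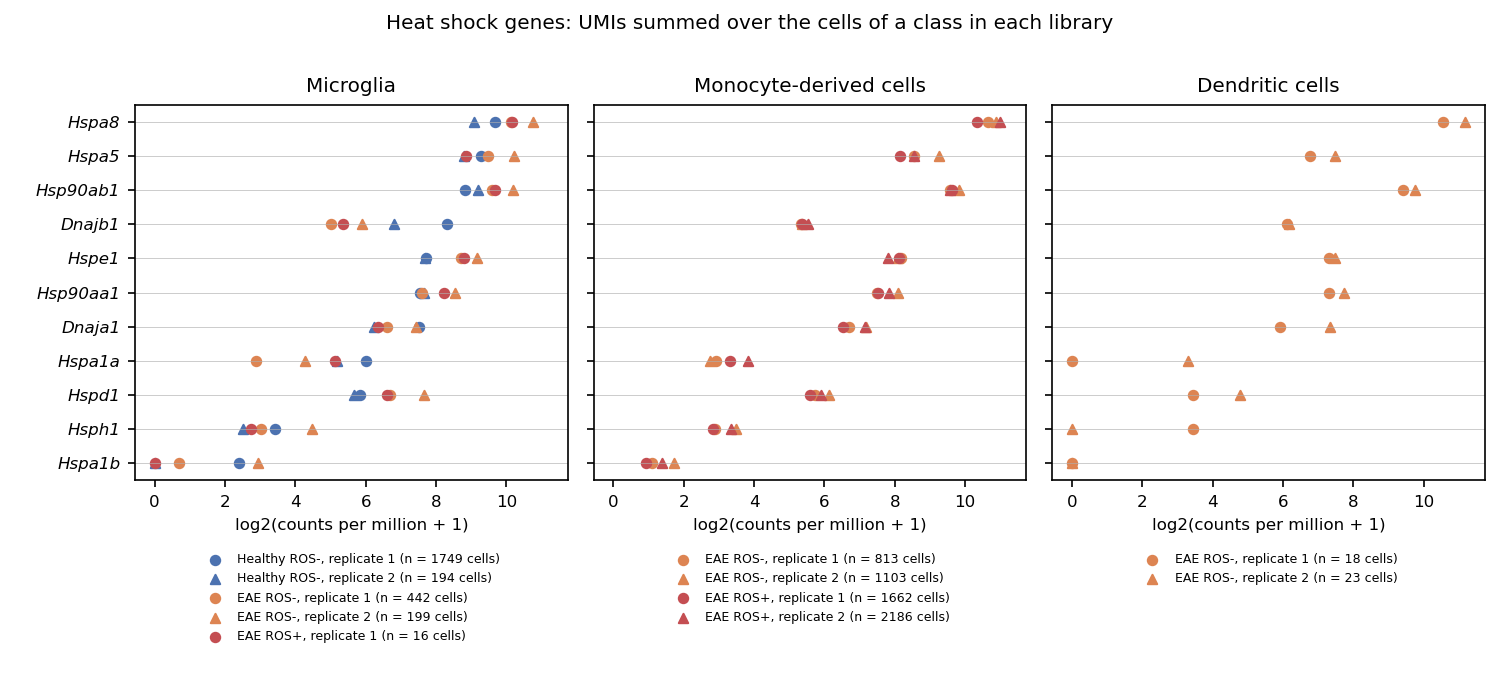
Levels of the 11 heat shock genes as log2(CPM + 1) on the horizontal axis, 1 row per gene, in the 3 cell classes, with circles for replicate 1, triangles for replicate 2 and colours for the groups. In microglia Hspd1 and Hspe1 lie further right in the EAE libraries and Dnajb1 further left, at 318 and 112 CPM in healthy and 31.2 and 58.6 CPM in EAE ROS- libraries.

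Other measures moved with the microglial comparison. The summed UMIs of the 9 monocyte markers were 420 and 577 CPM in EAE ROS- microglia against 35.5 and 40.4 CPM in healthy microglia, with all 9 detected in the EAE ROS- sums and Ccr2, F13a1 and Chil3 at 0 in healthy replicate 2. The 9 microglial markers were all detected, at 3124 and 3921 CPM in EAE ROS- and 9983 and 10608 CPM in healthy microglia. The 6 dividing-cell markers were at 338 and 561 CPM against 24.4 and 36.8 CPM. Without cells holding a dividing-cell marker, 20 immediate-early genes still fell, and 5 heat shock genes rose and 2 fell. That fit called 12.5% of all genes higher and 9.79% lower. Healthy replicate 2 stood apart for the 5 endothelial markers, all detected at 231 CPM, against 1.36 CPM with 3 detected in healthy replicate 1. At least 1 endothelial marker UMI was held by 58.8% of microglia in healthy replicate 2 and by 0.286% in healthy replicate 1. Leaving such cells out kept 80 of the 194 microglia of healthy replicate 2. Without microglia holding an endothelial marker the counts were 21 immediate-early genes and 8 heat shock genes, as in the full comparison. That fit called 26.7% of all genes. The part of the monocyte RNA in these differences was not tested.

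Related genes outside the 36 were tested in the same fit. Of 27 tested of 37 other immediate-early and rapid feedback genes, 2 rose and 6 fell, with a median of -0.25. Among those that fell, Gadd45g, a stress sensor, had 133 and 90.3 CPM in healthy and 9.01 and 24.97 CPM in EAE ROS- microglia (log2 fold change -2.76 ± 0.34, adjusted p = 1.56e-06). Cebpd, a C/EBP transcription factor, had 254 and 190.2 CPM against 31.8 and 49.9 CPM (log2 fold change -2.30 ± 0.26, adjusted p = 5.60e-07), and Dusp6, an ERK phosphatase, had 349.5 and 466 CPM against 119 and 120.0 CPM (log2 fold change -1.56 ± 0.25, adjusted p = 5.26e-05). These 3 were separated between the groups in the direction of the AP-1 genes. Bhlhe40, a repressor of Il10, went the other way, with 0.678 and 2.38 CPM in healthy (3 and 2 UMIs) and 15.6 and 28.8 CPM in EAE ROS- microglia (log2 fold change 4.54 ± 0.64, adjusted p = 1.29e-05). Sik1, the other gene that rose, missed the threshold with plain library totals.

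Of 31 tested of 34 other chaperones and heat shock regulators, 10 rose and 2 fell, with a median of 0.51. Bag1, an HSP70 exchange factor, had 107 and 93.9 CPM in healthy and 189.5 and 239 CPM in EAE ROS- microglia (log2 fold change 1.28 ± 0.24, adjusted p = 2.92e-04). The CCT chaperonin subunits Cct7 (log2 fold change 1.22 ± 0.25, adjusted p = 7.70e-04) and Tcp1 (log2 fold change 1.09 ± 0.25, adjusted p = 0.00219) also rose. The genes that fell were the HSP40 Dnajb4, at 36.9 and 43.98 CPM against 3.30 and 5.76 CPM (log2 fold change -3.05 ± 0.41, adjusted p = 5.73e-06), and the small heat shock gene Hspb1, at 14.5 and 15.4 CPM against 2.10 and 6.72 CPM (log2 fold change -1.82 ± 0.59, adjusted p = 0.0245). Both are known as stress-inducible, like Hspa1a and Dnajb1. Hsp90aa1, also inducible, had a positive fold change, as did Hsph1, Hspd1, Hspe1 and Dnaja1, whose windows hold the heat shock pair. In this fit 14.8% of all genes were called higher and 11.7% lower. Of 19 tested of 20 endoplasmic reticulum stress genes, 9 rose and 2 fell, with a median of 0.70. The rises included the protein disulphide isomerase Pdia3 (log2 fold change 1.49 ± 0.24, adjusted p = 6.26e-05), calreticulin, Calr (log2 fold change 1.501 ± 0.25, adjusted p = 8.11e-05), and the HSP90 of the endoplasmic reticulum, Hsp90b1 (log2 fold change 1.42 ± 0.24, adjusted p = 1.35e-04). Dnajb9 (log2 fold change -1.05 ± 0.27, adjusted p = 0.00512) and Herpud1 (log2 fold change -0.79 ± 0.24, adjusted p = 0.018) fell.

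The immediate-early sum of a microglial library was not spread evenly over its cells. Each cell was thinned to 1000 UMIs, which left out 53 and 4 shallower cells of the healthy libraries and none of the others. Healthy microglia then held a median of 5 and 8 immediate-early UMIs in replicates 1 and 2, with upper quartiles of 33.3 and 16.0 and 90th percentiles of 60 and 39. In EAE ROS- microglia the median was 3 in both libraries, the upper quartile 5 in both and the 90th percentile 15 and 16. Unthinned medians per 1000 UMIs were 4.91 and 7.64 in healthy and 2.54 and 2.59 in EAE ROS- microglia. In healthy replicate 1 the distance to EAE ROS- microglia was thus widest above the upper quartile, whereas healthy replicate 2 was also higher at the median. Cells with at least 15 immediate-early UMIs, a range and not a cell type, made up 30.3% and 28.4% of healthy and 10.9% and 10.6% of EAE ROS- microglia. In healthy replicate 1, 55 of 1696 cells lay within 5 UMIs of that limit and 514 were at or above it. In healthy replicate 2, 35 of 190 lay that close and 54 were at or above it. In EAE ROS- replicate 1, 47 of 442 cells lay that close and 48 were at or above it. In EAE ROS- replicate 2, 12 of 199 were close and 21 at or above. Healthy replicate 1 was thus the least exposed to the choice of limit.

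Monocyte-derived cells had a narrower spread around a higher middle. Their median was 10 and 11 immediate-early UMIs in the EAE ROS+ libraries and 9 and 9 in the EAE ROS- libraries, with 90th percentiles from 16 to 19. Cells with at least 15 made up 23.8% and 26.6% of EAE ROS+ and 18.6% and 15.7% of EAE ROS- monocyte-derived cells. The Fano factor, the variance over the mean, was 2.72 and 2.90 in EAE ROS+ and 3.31 and 2.88 in EAE ROS- monocyte-derived cells. It was 9.89 and 11.6 in EAE ROS- microglia and 32.3 and 14.0 in healthy microglia. Heat shock UMIs had lower Fano factors, from 0.875 to 1.95, in the classes and libraries with at least 100 cells. Their means were also lower, from 2.09 to 5.36 UMIs against 5.22 to 18.8 immediate-early UMIs. Where cells differ beyond counting error, the Fano factor rises with the mean. These factors therefore do not rank the relative spread of lists or groups with unlike means. Healthy microglia with at least 15 immediate-early UMIs held a mean of 3.97 heat shock UMIs in replicate 1, against 2.02 in the other cells, and 2.39 against 1.97 in replicate 2. Before thinning they also held more UMIs in all, with medians of 3570 against 1998 in replicate 1 and 5232 against 3264 in replicate 2. Across healthy microglia Pearson's r between the lists was 0.44 in replicate 1 (1696 cells) and 0.16 in replicate 2 (190 cells). It was between -0.04 and 0.07 in the other sums with at least 100 cells, and all cells of a sum share a library.

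**Figure D4:**
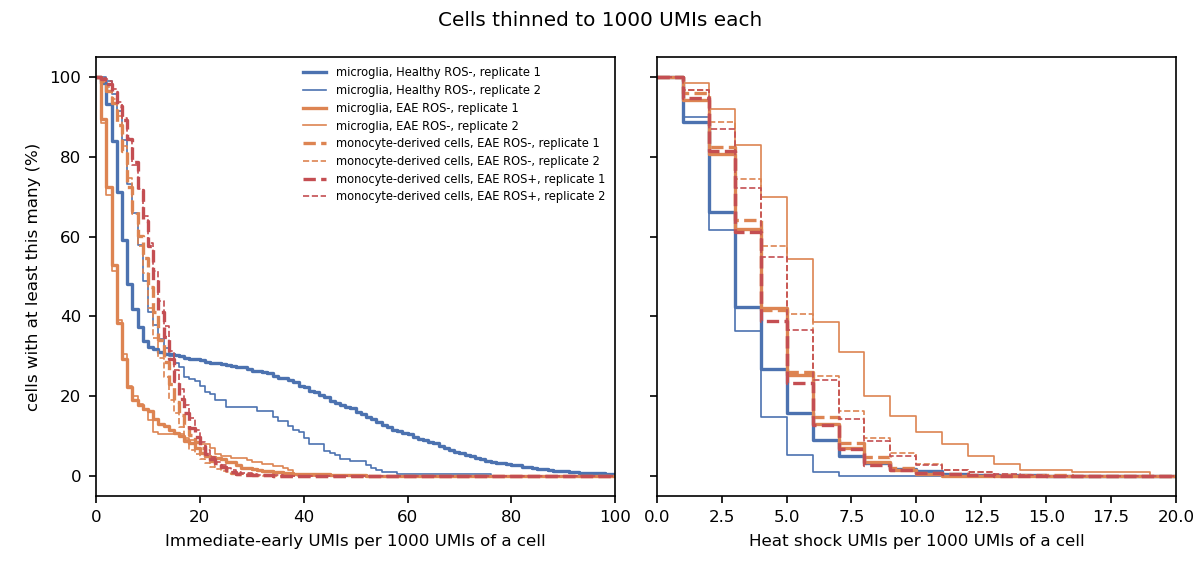
Percent of cells with at least a given number of immediate-early (left) or heat shock (right) UMIs among 1000 UMIs per cell, solid for microglia and dashed for monocyte-derived cells, thick for replicate 1 and thin for replicate 2. At 15 or more immediate-early UMIs the healthy microglial lines are the highest, with 30.3% and 28.4% of cells. Monocyte-derived cells had 15.7% to 26.6% there, but higher medians, 9 to 11 against 5 and 8. The heat shock medians run from 2 UMIs in both healthy microglial libraries to 5 in EAE ROS- replicate 2 microglia.

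The next comparison set the ROS+ gate against the ROS- gate in EAE within 1 cell class. In monocyte-derived cells 0 of 24 immediate-early and 0 of 11 heat shock genes passed (edgeR), and so did 0% of all 12073 genes tested. At an unadjusted p under 0.05, 583 genes, 1 immediate-early member and 1 heat shock member were counted, and DESeq2 also called 0 members. The immediate-early fold changes were positive in 22 of 24 genes, with a median of 0.26 against 0.02 over all genes, and the heat shock median was -0.07. Nr4a1 had the lowest p of the immediate-early genes, with 94.4 and 80.3 CPM in the EAE ROS+ and 59.8 and 46.3 CPM in the EAE ROS- libraries (log2 fold change 0.78 ± 0.20, adjusted p = 0.682). Both ROS+ libraries were above both ROS- ones, without passing the adjusted threshold.

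Among the AP-1 genes Fos had 2630.1 and 2300.2 CPM in the EAE ROS+ and 2218 and 1895 CPM in the EAE ROS- monocyte-derived cells (log2 fold change 0.32 ± 0.24, adjusted p = 0.998). Fosb had 179 and 130.2 CPM and 135 and 93.1 CPM (log2 fold change 0.502 ± 0.25, adjusted p = 0.998), where the lower ROS+ library was under the higher ROS- one. Jun, at 324 and 429.6 CPM and 319.9 and 362 CPM (log2 fold change 0.20 ± 0.21, adjusted p = 0.998), overlapped as well, whereas Fos did not. Junb had 1500.4 and 1847 CPM and 1493 and 1480.2 CPM (log2 fold change 0.23 ± 0.22, adjusted p = 0.998). Atf3 had 269 and 350.0 CPM and 265 and 254 CPM (log2 fold change 0.31 ± 0.20, adjusted p = 0.998). In both Junb and Atf3 the ROS+ libraries lay above the ROS- ones, by margins smaller than the spread between the ROS+ libraries. Egr1 had 98.3 and 75.4 CPM and 81.2 and 68.3 CPM (log2 fold change 0.28 ± 0.21, adjusted p = 0.998), and its groups overlapped.

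Klf2 had 199.7 and 206 CPM in the EAE ROS+ and 169.8 and 154 CPM in the EAE ROS- monocyte-derived cells (log2 fold change 0.38 ± 0.17, adjusted p = 0.998). Klf4 had 262 and 238 CPM and 234 and 180.0 CPM (log2 fold change 0.33 ± 0.20, adjusted p = 0.998). Both were without overlap. The feedback phosphatase Dusp1 was at 1607 and 1598 CPM and 1398 and 1427 CPM (log2 fold change 0.24 ± 0.21, adjusted p = 0.998). Ier3 had 653 and 835 CPM and 434 and 657 CPM (log2 fold change 0.498 ± 0.26, adjusted p = 0.998). Dusp1 did not overlap and Ier3 did, because of EAE ROS- replicate 2.

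Among the heat shock genes of monocyte-derived cells Hspa1a had 9.01 and 13.2 CPM in the EAE ROS+ and 6.62 and 5.77 CPM in the EAE ROS- libraries (log2 fold change 0.89 ± 0.26, adjusted p = 0.804). Dnajb1 had 40.3 and 45.1 CPM and 39.7 and 40.1 CPM (log2 fold change 0.15 ± 0.17, adjusted p = 0.998). The groups did not overlap for these inducible genes, at low levels. Hspa5 leaned the other way, with 283 and 371 CPM and 373 and 612 CPM (log2 fold change -0.54 ± 0.28, adjusted p = 0.998), and its highest ROS+ library was just under the lowest ROS- one. Hspa8 had 1299 and 2036 CPM and 1619 and 1882 CPM (log2 fold change -0.02 ± 0.27, adjusted p = 0.998). Hsp90aa1 had 185 and 230.0 CPM and 180.3 and 273 CPM, and Hsp90ab1 had 787 and 757 CPM and 760.1 and 903 CPM. These last 3 overlapped between the gates. Hspa1b was near 0, with 20 and 24 UMIs in the ROS+ and 8 and 20 UMIs in the ROS- libraries.

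In microglia the ROS+ side was 1 library, 16 cells of EAE ROS+ replicate 1, and had no replicate. The p-values of this comparison assume that the lone library varied like those of the other groups. The test called 0 of 24 immediate-early and 0 of 10 heat shock genes (edgeR), against 0.0934% of all genes called higher, 0% lower and 0.0934% in either direction. At an unadjusted p under 0.05 there were 4 immediate-early members and 1 heat shock member, beside 6.90% of all genes, and DESeq2 called 0 members. The immediate-early median was 0.29 against -0.14 over all genes tested. Fosb stood at 228 CPM in the 16 cells against 81.7 and 71.1 CPM in EAE ROS- microglia (log2 fold change 1.55 ± 0.41, adjusted p = 0.326). It passed without healthy replicate 1 (1.55) or healthy replicate 2 (1.51). Those libraries enter this comparison through the scaling, the shared estimate of the spread and the set of genes tested. In the 7 cells of EAE ROS+ replicate 2 Fosb had 4 UMIs, or 98.3 CPM, and with that library included it did not pass (1.24, adjusted p = 0.198). Fos was at 1072 CPM (log2 fold change 0.69 ± 0.31, adjusted p = 0.716), Jun at 849.6 CPM (log2 fold change 0.72 ± 0.32, adjusted p = 0.716) and Junb at 775 CPM (log2 fold change 0.08 ± 0.34, adjusted p = 0.976). These remained below every healthy library.

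Egr1 was at 331 CPM (log2 fold change 0.72 ± 0.38, adjusted p = 0.737) and Atf3 at 314 CPM (log2 fold change 0.89 ± 0.37, adjusted p = 0.683) in the same 16 cells. Klf2 was at 274 CPM (log2 fold change 0.25 ± 0.41, adjusted p = 0.929), Klf4 at 34.2 CPM (log2 fold change 0.26 ± 0.65, adjusted p = 0.96), Dusp1 at 650.0 CPM (log2 fold change 0.60 ± 0.31, adjusted p = 0.736) and Ier3 at 182 CPM (log2 fold change 0.74 ± 0.36, adjusted p = 0.721). Klf2 and Klf4 lay within the range of the EAE ROS- libraries, and the other 4 genes above it. Hspa5 was at 462 CPM (log2 fold change -1.02 ± 0.36, adjusted p = 0.574), under both EAE ROS- libraries, and Hspa8 was at 1135 CPM (log2 fold change -0.31 ± 0.33, adjusted p = 0.885). The dividing-cell markers in these 16 cells were at 1386 CPM and the monocyte markers at 622 CPM, both above the EAE ROS- sums, and their part in the values was not tested. The EAE ROS+ dendritic cells were a single cell of 3418 UMIs with 26 immediate-early UMIs (0.761%) and 4 heat shock UMIs (0.117%), and no comparison was made with it.

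Whether the gate acted differently in microglia and monocyte-derived cells was tested as an interaction. No member passed: 0 of 24 immediate-early and 0 of 11 heat shock genes (edgeR), where 0.198% of all genes were called higher, 0.0247% lower and 0.223% in either direction. At an unadjusted p under 0.05 there were 1 immediate-early and 0 heat shock members, beside 4.69% of all genes, and DESeq2 called 0 members. In data made with known changes this test recovered 11% of 4-fold and 0% of 2-fold changes, with 1 ROS+ microglial library, so few differences could have passed. The lowest p was that of Fosb, with a difference of 0.81 ± 0.40 (adjusted p = 0.985).

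Within the EAE ROS- libraries the classes were compared with the library as a block, and a member was called only where it passed under 3 scalings, TMM, RLE and plain totals, a rule added after the data were seen. Against monocyte-derived cells, 4 immediate-early genes were higher in microglia and 16 lower, of 24, and 3 heat shock genes were higher and 0 lower, of 11. By that rule 16.2% of all 12125 genes were called higher and 11.7% lower, and by TMM alone 16.2%, 18.6% and 34.8% were called higher, lower and in either direction. The median was -0.91 for immediate-early genes, 0.32 for heat shock genes and -0.02 for all genes. RLE scaling and plain totals raise the median of all genes by 0.19 and 0.26 in this comparison.

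The 16 lower genes included the most abundant ones of the list. Fos had 686 and 635 CPM in microglia and 2218 and 1895 CPM in monocyte-derived cells of the EAE ROS- libraries (log2 fold change -1.91 ± 0.25, adjusted p = 7.56e-13). Dusp1 had 435 and 418 CPM against 1398 and 1427 CPM (log2 fold change -1.996 ± 0.24, adjusted p = 7.83e-15), and Junb had 696 and 768 CPM against 1493 and 1480.2 CPM (log2 fold change -1.30 ± 0.24, adjusted p = 9.02e-07). All 3 were lower in the microglia of both libraries. Klf4 had the most negative value, with 22.8 and 37.4 CPM against 234 and 180.0 CPM (log2 fold change -3.15 ± 0.23, adjusted p = 1.54e-39). Ier3 had 105 and 113 CPM against 434 and 657 CPM (log2 fold change -2.55 ± 0.23, adjusted p = 3.53e-26) and Maff 18.02 and 17.3 CPM against 62.4 and 74.2 CPM (log2 fold change -2.15 ± 0.23, adjusted p = 1.37e-18). The levels of these 3 in microglia were under those of monocyte-derived cells in both libraries. The other 10, Egr2, Gadd45b, Klf6, Nr4a1, Jund, Dusp2, Atf3, Btg2, Zfp36 and Fosb, had fold changes from -1.45 for Egr2 to -0.84 for Fosb. Their microglial levels are given above, and in monocyte-derived cells Jund was at 687 and 523 CPM, Klf6 at 414 and 493 CPM, Zfp36 at 541 and 462 CPM and Btg2 at 485 and 367 CPM. Egr2 was at 21.8 and 31.4 CPM, Gadd45b at 76.7 and 56.1 CPM and Dusp2 at 30.1 and 18.5 CPM there. These 7 were all higher in the monocyte-derived cells of each library than in its microglia. With DESeq2, Btg2, Egr2, Nr4a1, Dusp2 and Fosb missed the threshold (adjusted p from 0.0508 to 0.232), and Dusp2 also missed it without the library block (0.065).

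The 4 genes higher in microglia were Rhob, Egr1, Gem and Ier5. Rhob had 217 and 269.8 CPM in microglia and 37.7 and 37.8 CPM in monocyte-derived cells (log2 fold change 2.40 ± 0.19, adjusted p = 1.04e-33). Egr1 had 202 and 196 CPM against 81.2 and 68.3 CPM (log2 fold change 1.14 ± 0.19, adjusted p = 1.54e-08). Gem had 9.15 and 4.04 CPM (log2 fold change 0.96 ± 0.33, adjusted p = 0.0129) and Ier5 114 and 108 CPM (log2 fold change 0.57 ± 0.19, adjusted p = 0.0095) in monocyte-derived cells, both under their microglial levels. Gem missed the threshold with DESeq2 (adjusted p = 0.14), and both missed it without the library block (adjusted p = 0.0838 and 0.0648). Jun (log2 fold change 0.29 ± 0.21, adjusted p = 0.304) and Klf2 (log2 fold change 0.19 ± 0.20, adjusted p = 0.503), lowered in EAE ROS- against healthy microglia, did not pass under all 3 scalings. Jun passed with RLE scaling (0.48, adjusted p = 0.043) and plain totals (0.57, adjusted p = 0.0107), and Klf2 with plain totals (0.47, adjusted p = 0.0373). Among heat shock genes Hspd1 had 103 and 199.7 CPM in microglia and 51.8 and 69.7 CPM in monocyte-derived cells (log2 fold change 0.97 ± 0.19, adjusted p = 1.60e-06). Hspa5 (log2 fold change 0.67 ± 0.22, adjusted p = 0.00807) and Hspe1, at 291 and 272 CPM in monocyte-derived cells (log2 fold change 0.51 ± 0.21, adjusted p = 0.0413), were also higher in microglia, and both missed the threshold without the library block. Hspa8 was lower by TMM alone (log2 fold change -0.62 ± 0.25, adjusted p = 0.0372).

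**Figure D5:**
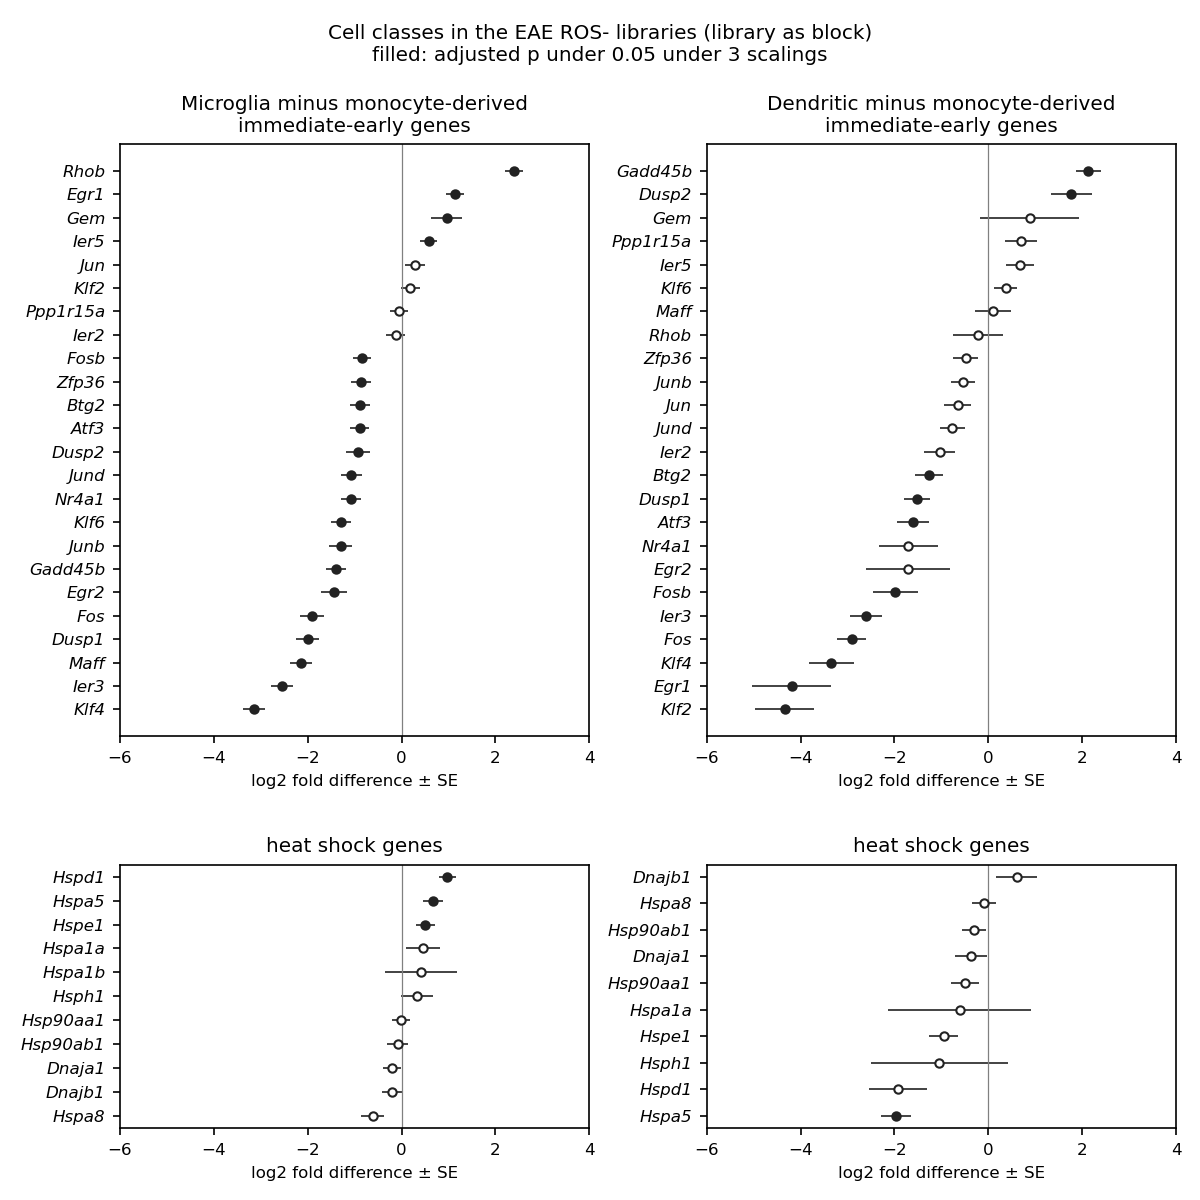
Log2 fold change with 1 SE to either side for each member in the EAE ROS- libraries, microglia against monocyte-derived cells on the left and dendritic against monocyte-derived cells on the right, filled where the adjusted p was under 0.05 under 3 scalings. Fos and Klf4 lie below 0 in both panels, Rhob is the highest on the left at 2.40 and Gadd45b the highest on the right at 2.13, and Hspa1b, with 0 UMIs in dendritic cells, is left out on the right.

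Dendritic cells, with 41 cells and 214857 UMIs in the EAE ROS- libraries, were compared in the same way. Of 24 immediate-early genes 2 were higher and 9 lower than in monocyte-derived cells, and 1 of 11 heat shock genes was lower. In data made with known changes this test recovered 25% of 4-fold and 7% of 2-fold changes, so genes not called may still differ. By the rule of 3 scalings 4.16% of all genes were called higher and 5.05% lower, and by TMM alone 4.16%, 6.85% and 11.0% were called higher, lower and in either direction. The median of all genes was -0.59 here, beside -0.90 for the immediate-early and -0.61 for the heat shock genes. The 2 higher genes were Gadd45b, with 343 and 319 CPM in dendritic and 76.7 and 56.1 CPM in monocyte-derived cells (log2 fold change 2.13 ± 0.26, adjusted p = 6.65e-14), and Dusp2, with 78.3 and 106 CPM against 30.1 and 18.5 CPM (log2 fold change 1.77 ± 0.44, adjusted p = 9.88e-04). Both were higher in the dendritic cells of each library.

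Fos was at 235 and 382 CPM in dendritic and 2218 and 1895 CPM in monocyte-derived cells (log2 fold change -2.91 ± 0.31, adjusted p = 2.53e-19). Ier3 was at 68.5 and 133 CPM against 434 and 657 CPM (log2 fold change -2.61 ± 0.34, adjusted p = 1.14e-12), and Dusp1 at 479.6 and 648 CPM against 1398 and 1427 CPM (log2 fold change -1.51 ± 0.27, adjusted p = 8.56e-07). In all 3 the dendritic level was lower in both libraries. Klf2 and Egr1 were nearly absent, with 2 UMIs and 1 UMI in all dendritic cells. The monocyte-derived level was 17.3 times the dendritic one for Klf2 (exact 95% interval 4.79 to 143, counting error only) and 15.9 times for Egr1 (2.85 to 630). Klf4, at 9.79 and 35.5 CPM in dendritic cells (log2 fold change -3.34 ± 0.49, adjusted p = 3.70e-10), and Fosb, at 19.6 and 44.4 CPM (log2 fold change -1.99 ± 0.48, adjusted p = 6.60e-04), were lower as well. So were Atf3, at 68.5 and 124 CPM (log2 fold change -1.60 ± 0.34, adjusted p = 7.23e-05), and Btg2, at 157 and 239.6 CPM (log2 fold change -1.27 ± 0.30, adjusted p = 3.70e-04). With a class rule of 1.5 times, in place of 3 times, the marker UMIs of any other class, the Btg2 difference was -0.42 (adjusted p = 0.392), and Fosb and Egr1 missed the threshold with DESeq2 (adjusted p = 0.0582 and 0.0718). Without EAE ROS+ replicate 2, TMM also called Jun (-0.83, adjusted p = 0.0222), Junb (-0.71, adjusted p = 0.0219) and Nr4a1 (-1.87, adjusted p = 0.0229) lower. The 1 heat shock gene called was Hspa5, with 108 and 177 CPM in dendritic and 373 and 612 CPM in monocyte-derived cells (log2 fold change -1.97 ± 0.32, adjusted p = 4.40e-08). The CPM of Hspa8 was 1507 and 2325 in dendritic and 1619 and 1882 in monocyte-derived cells (log2 fold change -0.09 ± 0.26, adjusted p = 0.866), and the values overlapped.

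Microglia and dendritic cells of the same libraries differed in 11 of 24 immediate-early genes, 6 higher and 5 lower in microglia, and in 3 of 11 heat shock genes, all higher. The shares of all genes were 7.30% higher and 6.85% lower by the rule of 3 scalings, and 7.35%, 7.06% and 14.4% higher, lower and in either direction by TMM alone. The medians were 0.14 for immediate-early, 1.06 for heat shock and 0.50 for all genes. Known changes were recovered in 21% of 4-fold and 3% of 2-fold cases, so genes not called may still differ. The higher genes were Egr1, Klf2, Rhob (log2 fold change 2.61 ± 0.43, adjusted p = 4.26e-08), Fos (log2 fold change 1.002 ± 0.31, adjusted p = 0.0106), Jun (log2 fold change 0.94 ± 0.29, adjusted p = 0.00953) and Ier2 (log2 fold change 0.91 ± 0.33, adjusted p = 0.0401). Egr1 and Klf2 were 43.2 times (7.73 to 1707) and 21.5 times (5.94 to 178) the dendritic level by their summed UMIs. In dendritic cells Rhob was at 48.9 and 26.6 CPM, Jun at 166 and 337 CPM and Ier2 at 108 and 151 CPM. The lower ones were Gadd45b (log2 fold change -3.53 ± 0.30, adjusted p = 1.14e-29), Dusp2 (log2 fold change -2.69 ± 0.49, adjusted p = 8.71e-07), Maff (log2 fold change -2.25 ± 0.48, adjusted p = 5.58e-05), Klf6 (log2 fold change -1.66 ± 0.25, adjusted p = 2.26e-09) and Junb (log2 fold change -0.76 ± 0.26, adjusted p = 0.0274). Their dendritic levels were 68.5 and 97.6 CPM for Maff, 675 and 666 CPM for Klf6 and 929.8 and 1429 CPM for Junb, all above microglia of the same libraries. Without EAE ROS+ replicate 2 Junb missed the threshold (-0.56, adjusted p = 0.0949). Without the library block Jun (adjusted p = 0.0976), Ier2 (0.0619) and Junb (0.0738) missed it. Ier2 also missed it with DESeq2 (adjusted p = 0.11) and with class rules of 6 times (0.63, adjusted p = 0.259) and 1.5 times (0.66, adjusted p = 0.105), and Junb with the rule of 1.5 times (adjusted p = 0.154). The heat shock genes were Hspd1 (log2 fold change 2.90 ± 0.56, adjusted p = 3.94e-06), Hspa5 (log2 fold change 2.64 ± 0.32, adjusted p = 7.18e-15) and Hspe1 (log2 fold change 1.46 ± 0.30, adjusted p = 3.35e-05). Hspe1 was at 157 and 177 CPM in dendritic cells and Hspd1 rested on 4 dendritic UMIs. Fos and Dusp1 thus had their highest EAE ROS- level in monocyte-derived cells, Gadd45b and Dusp2 in dendritic cells and Rhob and Egr1 in microglia.

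The sums over all sorted cells mix these classes, and in them fewer cells of a type cannot be told apart from less RNA per cell. For EAE ROS- against healthy cells, 5 immediate-early genes rose and 10 fell of 24, and 4 heat shock genes rose and 2 fell of 11 (edgeR), where 19.9% of all 13631 genes were called higher, 14.0% lower and 34.0% in either direction. The medians were -0.79, 0.62 and 0.01 for immediate-early, heat shock and all genes. Maff rose from 19.9 and 2.19 CPM in healthy to 42.6 and 64.3 CPM in EAE ROS- cells (log2 fold change 2.41 ± 0.52, adjusted p = 0.00687) and Nr4a1 from 33.6 and 13.1 CPM to 56.2 and 46.3 CPM (log2 fold change 1.46 ± 0.33, adjusted p = 0.00825). Both were higher in monocyte-derived cells than in microglia of the EAE ROS- libraries. Ier3 (log2 fold change 1.32 ± 0.33, adjusted p = 0.0141), Dusp1 (log2 fold change 0.93 ± 0.25, adjusted p = 0.0199) and Dusp2 (log2 fold change 1.39 ± 0.34, adjusted p = 0.0123) rose too, but missed the threshold with plain library totals, which lower the median of all genes by 0.49. Among the 10 that fell, Rhob had 1399 and 982 CPM in healthy and 101 and 68.9 CPM in EAE ROS- cells (log2 fold change -3.33 ± 0.28, adjusted p = 5.18e-05), Klf2 2204 and 1181 CPM against 158 and 163 CPM (log2 fold change -2.91 ± 0.31, adjusted p = 1.85e-04) and Jun 3205 and 2849.7 CPM against 335 and 396 CPM (log2 fold change -2.56 ± 0.26, adjusted p = 1.46e-04). These 3 fell in microglia as well. Gem, Egr1, Ier5, Ier2, Btg2, Ppp1r15a and Jund fell by 2.56, 2.24, 2.15, 1.67, 1.43, 1.45 and 0.90 on the log2 scale. Fos, with 2625 and 1933 CPM in healthy and 1553 and 1649 CPM in EAE ROS- cells (log2 fold change -0.02 ± 0.25, adjusted p = 0.953), did not pass although it fell within microglia.

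Among the heat shock genes of all sorted cells, Hspa8 rose from 823 and 533 CPM in healthy to 1346 and 1813 CPM in EAE ROS- cells (log2 fold change 1.71 ± 0.33, adjusted p = 0.00392). Hsp90ab1 (log2 fold change 1.23 ± 0.25, adjusted p = 0.00525), Hspe1 (log2 fold change 1.20 ± 0.22, adjusted p = 0.00288) and Hspd1 (log2 fold change 1.07 ± 0.24, adjusted p = 0.00784) rose, and Hspa1a (log2 fold change -2.29 ± 0.34, adjusted p = 0.00111) and Dnajb1 (log2 fold change -1.94 ± 0.41, adjusted p = 0.0063) fell, the same directions as in microglia. With plain library totals Hspd1 missed the threshold (0.58, adjusted p = 0.0708). Without healthy replicate 1, Ppp1r15a (-0.44), Jund (-0.52), Ier2 (-0.81), Gem (-1.72), Ier3, Hspd1 and Hsp90ab1 missed the threshold and Gadd45b was called higher (1.37). Without healthy replicate 2, Ier3 and Dusp1 missed it and Egr2 (-1.46), Fosb (-1.22) and Atf3 (-1.14) were called lower. Without EAE ROS- replicate 2, Dusp1 (0.76), Ier3 (0.78), Jund and Hspd1 missed it, and without EAE ROS- replicate 1, Jund missed it and Hsp90aa1 was called higher (1.15).

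For EAE ROS+ against EAE ROS- over all sorted cells, 0 of 24 immediate-early and 0 of 11 heat shock genes passed (edgeR), where 0.125% of all genes were called higher, 2.04% lower and 2.16% in either direction. At an unadjusted p under 0.05 there were 6 immediate-early and 2 heat shock members, beside 12.5% of all genes. DESeq2 called 2 immediate-early genes, Fos (0.83) and Klf4 (0.94), and 0 heat shock genes, with 3.09% of all genes called. The immediate-early fold changes were positive in 19 of 24, with a median of 0.52 against -0.01 over all genes. Klf4 came closest, with 255 and 234 CPM in the ROS+ and 145 and 151 CPM in the ROS- libraries (log2 fold change 0.89 ± 0.22, adjusted p = 0.0856). Both ROS+ libraries were above both ROS- ones. Rhob leaned the other way, with 40.7 and 44.3 CPM against 101 and 68.9 CPM (log2 fold change -0.82 ± 0.26, adjusted p = 0.176). Microglia made up 0.917% and 0.313% of the EAE ROS+ and 27.4% and 13.02% of the EAE ROS- cells, and Klf4 was lower and Rhob higher in microglia than in monocyte-derived cells. Without EAE ROS- replicate 2, Ier3 passed (1.503, adjusted p = 0.0147), at 639 and 825 CPM in the ROS+ and 299 and 552 CPM in the ROS- libraries. The heat shock gene with the most negative value was Hspa5, at 287 and 376 CPM in the ROS+ and 483 and 652 CPM in the ROS- libraries (log2 fold change -0.61 ± 0.27, adjusted p = 0.399).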

How the data were processed

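The authors deposited, per the file headers, 1 matrix of whole-number UMI counts per gene and barcode for each of 6 libraries. Per the submitters' processing notes, Cell Ranger 2.0.1, Seurat 3, R 3.4.2 and the mm10 build were used. Barcodes below 200 genes or above 10% mitochondrial UMIs were dropped. A cell joined a class with at least 3 UMIs from at least 2 of its markers and 3 times the UMIs of any other class. Counts were summed per library and class with at least 10 cells and tested with edgeR 4.0.16 (limma 3.58.1, R 4.3.3): quasi-likelihood F test, TMM, filterByExpr, Benjamini-Hochberg adjustment over all genes tested. CPM used plain UMI totals. DESeq2 1.42.0 was an alternative. In data made with known changes, the microglial EAE ROS- against healthy test recovered 94% of 4-fold and 32% of 2-fold changes among 9640 genes, with 10.6% of its calls false, and the microglial gate test 26% of 4-fold changes. The members, the other gene lists and the tests were chosen with earlier results of these data known. Values in every library are printed for a set list of members and for members called within or between cell classes, and for up to 3 genes per direction of the other lists. Intervals cover counting error only. Gene positions and promoters are from RefSeq (GRCm38.p6).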

Additional observations from a re-analysis of the deposited data

How the results depend on the processing

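No result reversed. Of the members called, 21 of 29 kept their call under every setting in microglia of EAE ROS- against healthy mice, 12 of 21 over all sorted cells, 14 of 23 for microglia and 9 of 12 for dendritic cells against monocyte-derived cells, and 11 of 14 for microglia against dendritic cells. For EAE ROS+ against EAE ROS- over all sorted cells, 0 immediate-early genes became 2 with DESeq2, 4 without the low count filter, 1 with a replicate block and 12 (11 higher, 1 lower) with the EAE libraries alone and the replicate block. These fits called 3.09%, 4.88%, 4.37% and 14.3% of all genes, the last 5.07% higher and 9.24% lower. The count was 0 to 1 when a library was left out. The 0 heat shock genes became 2 with the EAE libraries alone and the replicate block, Hspa1a higher and Hspa5 lower. Same-numbered EAE ROS+ and ROS- libraries deviated together (correlation 0.523 over all sorted cells, 0.456 in monocyte-derived cells), but there are only 2 pairs and the labels state no pairing, so the block is no better founded. In microglia of the 2 gates the ROS+ side was 1 library, and whether Fosb passed changed with the setting. Its log2 fold change was 1.49 without the low count filter, 1.57 with the EAE libraries alone and 1.58 without endothelial markers. In monocyte-derived cells of the 2 gates 1 immediate-early gene, Nr4a1, was called without the low count filter and with the replicate block. These fits called 1.05% and 1.82% of all genes. In microglia of EAE ROS- against healthy mice, 5 to 8 heat shock genes were called when a library was left out. By TMM alone, 4 heat shock genes differed between microglia and monocyte-derived cells, and 1 without the replicate block (34.8% and 25.7% of all genes). For dendritic cells 3 became 1 with DESeq2, 1 with RLE scaling and 1 without the replicate block. Those fits called 7.65%, 10.1% and 8.14% of all genes. The cause of these changes was not tested. Per 1000 UMIs, the median of EAE ROS+ microglia moved from 2.5 to 3 heat shock UMIs and from 3 to 2 immediate-early UMIs when thinned to 2000, and to 1.95 unthinned. The EAE ROS+ microglia gave no comparison under a class rule of 6 times, without dividing cells or without EAE ROS+ replicate 1. For the comparisons between classes in the EAE ROS- libraries, only an EAE ROS+ library was ever left out. Their counts of calls kept therefore do not show whether a call survives without either EAE ROS- library. Depth limits the dendritic cells (41 cells, 214857 UMIs) and the EAE ROS+ microglia (16 cells).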
